A study of Mus musculus with 20 samples.

Results

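The subject here is 38 genes that encode enzymes of the tricarboxylic acid (TCA) cycle and of mitochondrial fuel oxidation, followed in mouse embryonic fibroblasts exposed to actinonin. The genes were chosen by name: every array probe that is no control and whose transcript accession leads to 1 of the 38 symbols was taken. All 38 genes were found, of 20145 named genes on the array, and 46 probes stood for them. They fall into 14 genes listed under the TCA cycle and 2 that carry glutamate and aspartate carbon into it. A further 14 are of fatty acid oxidation, 5 of branched-chain amino acid oxidation and 3 of the electron transfer flavoprotein (ETF) chain. The 14 TCA cycle genes include Mdh1, whose enzyme is cytosolic and not part of the cycle in the matrix. All 46 probes were well above background in all 20 samples, so no member was lost to a filter on dim signals. Where a gene had several probes, the brightest stood for it.

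The TCA cycle oxidises acetyl-CoA in the mitochondrial matrix and passes the electrons to the respiratory chain as NADH and reduced flavin. Fatty acids reach the matrix as acylcarnitines and are shortened in rounds of dehydrogenation, hydration, dehydrogenation and thiolysis. Leucine, isoleucine and valine are first transaminated and then decarboxylated by the branched-chain 2-oxoacid dehydrogenase, and the acyl-CoA dehydrogenases of both routes hand their electrons to ETF.

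The fibroblasts were of a Balb/c background and grew in medium with foetal bovine serum and added uridine, which supports cells whose respiratory chain fails. The treated groups received actinonin, an inhibitor of peptide deformylase, at 150 µM for 6, 24, 48 or 72 h, and the control group received the ethanol carrier at 3 µl/ml and is labelled 0 h. How long the controls stood with carrier is not given in the sources used here, so time in culture and actinonin cannot be told apart. Each of the 5 groups had 4 independent samples, each pooled from 4 plates, with 2 samples labelled with Cy3 and 2 with Cy5. The 20 samples lay on 10 two-colour arrays: 2 controls and 2 samples of 6 h on slide 1, and the other 16 samples on slide 2. The samples of 24 h and 72 h shared arrays only with each other, while those of 48 h shared arrays with controls or samples of 6 h. Between 48.6% and 68.6% of spots were well above background in a sample, and the highest values, 64.3% and 68.6%, belonged to the control and the 48 h sample on array 7. The number of arrays limits the precision. In these bulk samples fewer cells of a type and less RNA per cell cannot be told apart, and p-values measure the spread between pooled samples.

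The labelled cell type was checked on markers. Of 14 fibroblast markers, 13 were well above background in every sample. Markers of other cell types were present in part. Of the markers on the array, 4 of 8 for macrophages and leukocytes, 2 of 9 for adipocytes, 3 of 9 for striated muscle, 2 of 7 for epithelium, 2 of 6 for endothelium and 0 of 6 for hepatocytes were well above background in all control samples. Those not well above background in any control included Ptprc, Cd53 and Adgre1 of macrophages and leukocytes, Adipoq, Plin1 and Ucp1 of adipocytes, Actc1, Ckm, Myod1 and Myog of muscle, Cdh1 and Krt8 of epithelium, Cdh5, Emcn and Tek of endothelium, and Alb, Afp and Ttr of hepatocytes. The fibroblast markers themselves moved with the exposure: 4 of 14 were lower than the control at 6 h, 10 at 24 h, 12 at 48 h and 9 at 72 h, with 1 higher, at 72 h. Their summed signal, in units of 1000 on the intensity scale, ran from 895 to 1224 in the controls, 759 to 1077 at 6 h, 775 to 942 at 24 h, 586 to 868 at 48 h and 825 to 980 at 72 h. The summed adipocyte signal in the same unit ran from 2.16 to 2.46 in the controls, 2.26 to 3.20 at 6 h, 3.07 to 3.54 at 24 h, 1.93 to 2.13 at 48 h and 3.23 to 3.435 at 72 h. Of its 3 tested genes Lpl, a lipoprotein lipase, rose by 0.85 (SE 0.09) at 24 h and 0.92 (SE 0.09) at 72 h with changes of 0.19 and -0.02 at 6 h and 48 h, not called, while Fabp4, a fatty acid binding protein, fell by 0.75, 1.04 and 1.06 (SE 0.08) at 24, 48 and 72 h. Fabp4 was well above background in no sample of 72 h, so the size of its fall there is uncertain. The summed muscle signal ran from 3.20 to 4.72 in the controls, 3.46 to 5.10 at 6 h, 2.16 to 2.42 at 24 h, 2.43 to 2.77 at 48 h and 1.53 to 1.75 at 72 h. Of its 5 tested genes Tnnt2, a troponin, was lower at those 3 later times, and 1 other was called higher at 48 h. The summed macrophage and leukocyte signal, in the same unit, ran from 31.6 to 46.5 in the controls and 30.5 to 44.7 at 6 h. It ran from 33.7 to 35.5 at 24 h, 35.7 to 42.25 at 48 h and 34.8 to 38.4 at 72 h. Of 5 tested macrophage and leukocyte markers 0 were called at 6 h, 3 were lower at 24 h and 2 at 48 h and 72 h, and of 2 endothelial markers 2 were lower at 24 h and 1 at 72 h. The part of these shifts in the results on the 38 genes was not tested.

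Values below are normalized log2 intensities with the fitted dye and slide effects removed, so that samples of both dyes and slides can be set side by side. Statements on which samples overlap hold for these adjusted values. The slide effect rests on the controls and samples of 6 h, the groups that lie on both slides. Some groups that lie apart after this adjustment overlapped before it. For Mdh1, controls ran from 13.72 to 14.12 before it and samples of 6 h from 13.47 to 13.83. A change is the log2 difference fitted by limma over all 20 samples, given with its standard error (SE). Adjusted p-values are limma's, by the Benjamini-Hochberg method over all 24250 genes and transcripts tested, and a gene was called higher or lower at an adjusted p under 0.05. A probe's brightness is not comparable between genes, so levels are compared only within a gene. The comparisons with the control share the same 4 control samples, and their values are given side by side for that reason.

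All 38 genes moved by less than 1 unit of log2, between -0.57 and 0.92 against the control, and the enzymes of the 3 routes did not move as 1 block. At 6 h, 4 of the 38 genes were higher and 9 lower than the control. At 24 h, 10 were higher and 10 lower. At 48 h, 8 were higher and 11 lower. At 72 h, 12 were higher and 10 lower. With loess within arrays as the sole normalization 5, 3 and 4 were lower at 6, 24 and 72 h, without the slide term 6 at 72 h, and 7 at 48 h without array 7. At 6 h a fit of both groups alone called 2 higher and 2 lower. Among all features tested, 13.7% were called higher and 11.1% lower at 6 h, 21.2% and 19.1% at 24 h, 21.5% and 20.3% at 48 h, and 25.2% and 22.6% at 72 h. The members' shares were 10.5% higher and 23.7% lower at 6 h, 26.3% and 26.3% at 24 h, 21.1% and 28.9% at 48 h, and 31.6% and 26.3% at 72 h. From 24 h on these shares lie near the background, so the number of calls is no result about fuel oxidation. What follows is which enzymes moved in which direction.

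**Figure D1:**
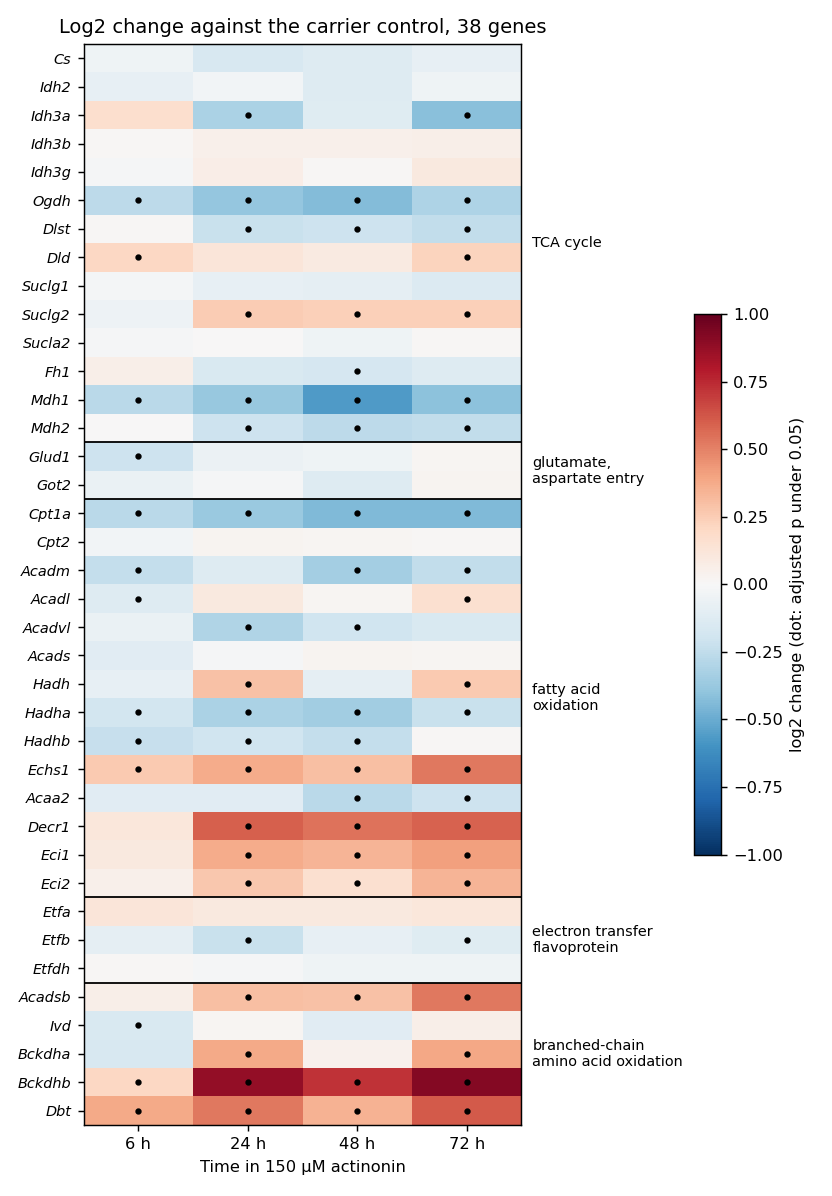
Fitted log2 change against the control at 6, 24, 48 and 72 h for the 38 genes, grouped by role, with colour for direction and size and a mark for an adjusted p under 0.05. The branched-chain genes Bckdhb and Dbt and the fatty acid oxidation gene Echs1 are higher at all 4 times. Mdh1, Ogdh, Cpt1a and Hadha are lower at all 4.

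By role, the median change of the 14 TCA cycle genes was -0.01 at 6 h, -0.11 at 24 h, -0.12 at 48 h and -0.11 at 72 h. For the 14 fatty acid oxidation genes the medians were -0.10, 0.01, -0.03 and 0.01. For the 5 branched-chain genes they were 0.06, 0.38, 0.29 and 0.53. The medians over all features tested were 0.00 at 6 h, 0.01 at 24 h, 0.00 at 48 h and 0.00 at 72 h. The difference between the roles was not tested. These medians describe the list, and the counts behind them differ in kind: 4 of 5 branched-chain genes were higher at 24 h and at 72 h, 5 of 14 TCA genes were lower and 1 higher at 24 h and at 48 h, and the fatty acid genes were 1 higher and 5 lower at 6 h, 5 and 4 at 24 h, 4 and 6 at 48 h, and 6 and 4 at 72 h.

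The branched-chain 2-oxoacid dehydrogenase is a complex of a decarboxylase made of alpha and beta chains (Bckdha and Bckdhb), a transacylase core (Dbt) and the dihydrolipoamide dehydrogenase Dld, which it shares with the pyruvate and 2-oxoglutarate complexes. The stretches of 250 bases before the RefSeq starts of the genes for both decarboxylase chains (assembly GRCm38.p6) are shown because these chains were called higher at different times. The difference between their courses was not tested. They lie at chr9:83924887-83925136, plus strand, for Bckdhb, which has a further listed start, and at chr7:25658762-25659011, minus strand, for Bckdha. No motif is marked in them.
Bckdhb: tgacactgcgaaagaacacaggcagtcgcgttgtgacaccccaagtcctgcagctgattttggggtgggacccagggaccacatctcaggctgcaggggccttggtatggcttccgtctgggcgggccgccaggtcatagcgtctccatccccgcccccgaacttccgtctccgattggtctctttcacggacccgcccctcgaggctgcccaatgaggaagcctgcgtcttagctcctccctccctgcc
Bckdha: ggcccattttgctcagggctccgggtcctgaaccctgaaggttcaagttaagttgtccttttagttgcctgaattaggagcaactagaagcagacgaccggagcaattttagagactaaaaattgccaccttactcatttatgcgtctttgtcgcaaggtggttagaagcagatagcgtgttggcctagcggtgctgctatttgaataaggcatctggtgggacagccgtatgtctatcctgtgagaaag

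Bckdhb (NM_199195) showed the largest change of the 38 genes. In the control group Bckdhb was at 11.97, 11.98, 12.07 and 12.14. The 6 h samples were at 12.13, 12.22, 12.22 and 12.38, those of 24 h at 12.85, 12.86, 12.94 and 13.01, those of 48 h at 12.70, 12.73, 12.75 and 12.83 and those of 72 h at 12.92, 12.94, 12.96 and 13.01. The 6 h samples overlapped the controls, and every later sample lay above all controls and all samples of 6 h. The changes were 0.21 (SE 0.05) at 6 h, 0.88 (SE 0.06) at 24 h, 0.72 (SE 0.06) at 48 h and 0.92 (SE 0.06) at 72 h, the last a 1.89-fold rise with an adjusted p of 1.62e-09 in limma.

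Dbt (NM_010022), the transacylase core, was also called higher from 6 h on. In the control group Dbt was at 7.40, 7.50, 7.53 and 7.60, the 6 h samples at 7.78, 7.91, 7.92 and 7.94, those of 24 h at 8.0, 8.03, 8.05 and 8.06, those of 48 h at 7.78, 7.80, 7.83 and 8.03 and those of 72 h at 8.06, 8.07, 8.16 and 8.17. All 16 treated samples lay above all controls, and the 6 h and 48 h samples overlapped. The changes were 0.38 (SE 0.06), 0.53 (SE 0.07), 0.35 (SE 0.06) and 0.61 (SE 0.07), with an adjusted p of 7.5e-05 in limma at 6 h and 7.96e-07 at 72 h.

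Bckdha (NM_007533), the alpha chain, rose and fell in turn, and the part of the array layout in this course was not tested. In the control group Bckdha was at 11.24, 11.32, 11.50 and 11.62, and the 6 h samples at 11.21, 11.28, 11.33 and 11.36. At 24 h the samples were at 11.72, 11.80, 11.83 and 11.90, at 48 h at 11.34, 11.46, 11.48 and 11.61, and at 72 h at 11.79, 11.83, 11.83 and 11.85. The samples of 24 h and 72 h lay above all others, and those of 6 h and 48 h lay within or near the range of the controls. The changes of 0.38 (SE 0.08) at 24 h and 0.39 (SE 0.08) at 72 h were called, with adjusted p-values of 0.00102 and 0.000541 in limma, and those of -0.16 (SE 0.07) at 6 h and 0.04 (SE 0.07) at 48 h were not. Dld, the shared dehydrogenase, was higher by 0.21 (SE 0.04) at 6 h and 0.22 (SE 0.05) at 72 h, and its changes of 0.12 at 24 h and 0.09 at 48 h were not called. A further probe of Dld gave 0.26, 0.15, 0.14 and 0.22 over the 4 times.

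Downstream of the complex, Acadsb, the dehydrogenase of short branched acyl-CoA from isoleucine, rose, and Ivd, the isovaleryl-CoA dehydrogenase of leucine breakdown, had no called rise against the control. The controls of Acadsb were at 9.37, 9.47, 9.51 and 9.61 and the 6 h samples at 9.45, 9.61, 9.62 and 9.65, which overlapped them. Samples of 24 h were at 9.72, 9.78, 9.80 and 9.93, those of 48 h at 9.59, 9.81, 9.86 and 9.93 and those of 72 h at 9.97, 10.0, 10.01 and 10.17. All samples of 24 h and 72 h lay above the controls, and 1 sample of 48 h did not. Its changes were 0.06 (SE 0.07), 0.30 (SE 0.08), 0.29 (SE 0.07) and 0.53 (SE 0.08), the last with an adjusted p of 3.02e-05 in limma. Without the second Cy3 control the calls at 24 h and 48 h were lost, with changes of 0.24 and 0.24. Ivd was lower by 0.15 (SE 0.05) at 6 h, a call with an adjusted p of 0.0457 in limma that 16 of 20 fits without 1 sample did not keep, and its changes of 0.02, -0.11 and 0.06 at the later times were not called.

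**Figure D2:**
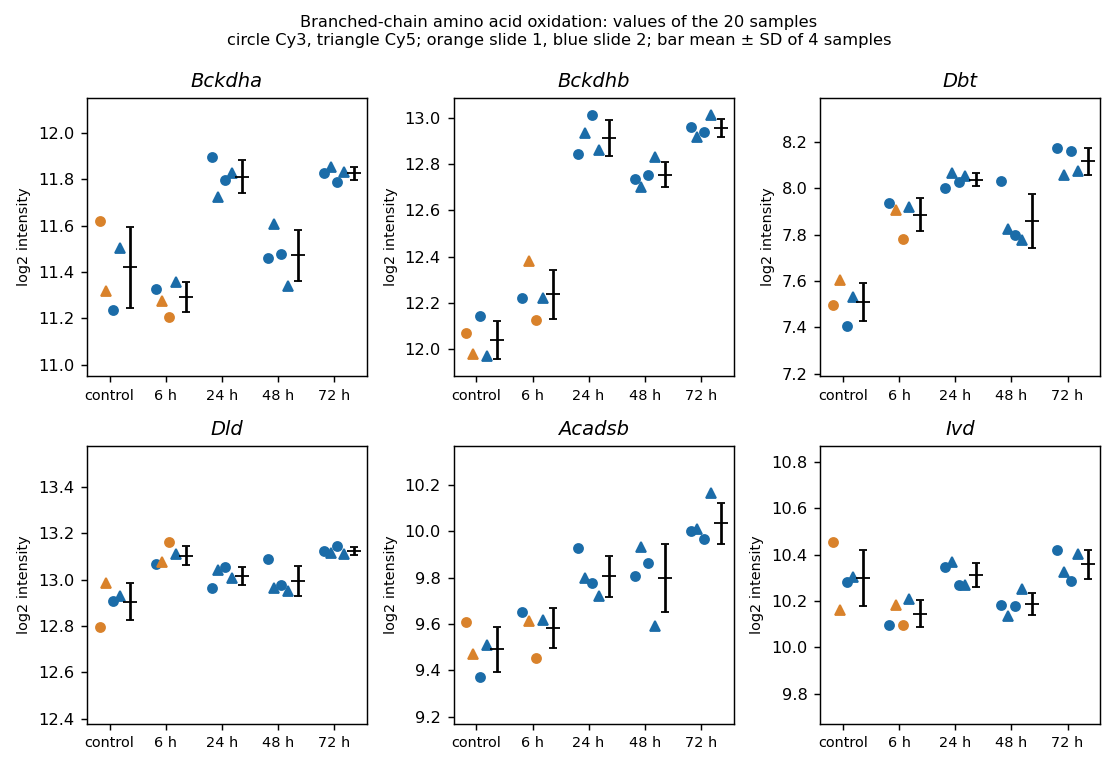
Log2 intensity, dye and slide effects removed, of Bckdha, Bckdhb, Dbt, Dld, Acadsb and Ivd in the 20 samples (circles Cy3, triangles Cy5, orange slide 1, blue slide 2), with the mean and SD of each group of 4. Bckdhb steps up between 6 h and 24 h, and Bckdha is high at 24 h and 72 h but not at 48 h.

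A longer list of 20 other genes of branched-chain amino acid and propionate breakdown was set beside these. Of its 20 tested genes 5 were higher and 4 lower at 6 h, 11 and 2 at 24 h, 11 and 3 at 48 h, and 12 and 1 at 72 h. Of all features tested, 13.7% were higher and 11.1% lower at 6 h, and 21.2% and 19.1% at 24 h. At 48 h these shares were 21.5% and 20.3%, and at 72 h 25.2% and 22.6%. They also stand beside the counts of the other lists below, and no list was tested against them. At 72 h the changes in the branched-chain list ran from -0.48 to 1.04. Aldh6a1, the methylmalonate-semialdehyde dehydrogenase of valine breakdown, changed by -0.10 at 6 h, not called, and rose by 0.84 at 24 h, 0.69 at 48 h and 1.04 (SE 0.09) at 72 h. Mccc1, a subunit of the carboxylase of leucine breakdown, changed by 0.14, not called, then rose by 0.88, 0.62 and 0.90 (SE 0.07). Mmut, the methylmalonyl-CoA mutase, fell by 0.19 at 6 h and rose by 0.35, 0.22 and 0.58 (SE 0.05) later.

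Among the genes listed under the TCA cycle the called falls were those of Mdh1, Mdh2, Ogdh, Dlst, Idh3a and Fh1. The called rises were those of Dld and Suclg2. Mdh1, the cytosolic malate dehydrogenase of the malate-aspartate shuttle and so outside the cycle in the matrix, had the largest fall. Control samples of Mdh1 were at 13.85, 13.85, 13.99 and 14.14 and the 6 h samples at 13.61, 13.61, 13.67 and 13.81. At 24 h the samples were at 13.53, 13.57, 13.58 and 13.62, those of 48 h at 13.32, 13.35, 13.40 and 13.45 and those of 72 h at 13.45, 13.53, 13.58 and 13.59. All 16 treated samples lay below all controls, and the 48 h samples reached the lowest values. Mdh1 fell by 0.27 (SE 0.06), 0.38 (SE 0.07), 0.57 (SE 0.07) and 0.41 (SE 0.07) over the 4 times, with an adjusted p of 1.27e-06 in limma at 48 h, a 1.49-fold decrease. Mdh2, the enzyme of the matrix, had controls at 16.53, 16.57, 16.74 and 16.77 and 6 h samples at 16.56, 16.59, 16.66 and 16.75, which overlapped them. Its samples were at 16.38, 16.41, 16.42 and 16.54 at 24 h, at 16.35, 16.37, 16.40 and 16.44 at 48 h and at 16.33, 16.40, 16.42 and 16.43 at 72 h. Apart from 1 sample of 24 h, the later samples lay below all controls. The change of Mdh2 at 6 h was not called (adjusted p = 0.99 in limma), and it fell by 0.21 (SE 0.07), 0.26 (SE 0.06) and 0.25 (SE 0.07) at 24, 48 and 72 h. All 3 of these calls were lost without the second Cy3 control, on array 7, with changes of -0.14, -0.18 and -0.18. The call at 24 h was also lost without either of its Cy5 samples, with changes of -0.19 and -0.19.

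Ogdh, the decarboxylase of the 2-oxoglutarate complex, fell at every time. Control samples of Ogdh were at 13.20, 13.25, 13.28 and 13.31, the 6 h samples at 12.96, 12.97, 13.02 and 13.03, those of 24 h at 12.79, 12.85, 12.90 and 12.93, those of 48 h at 12.73, 12.82, 12.88 and 12.88 and those of 72 h at 12.86, 12.92, 12.98 and 13.01. No treated sample overlapped the controls in these adjusted values. Before the adjustment the samples of 72 h, at 12.90 to 13.12, overlapped the controls, at 13.08 to 13.36. It fell by 0.26 (SE 0.05), 0.39 (SE 0.06), 0.43 (SE 0.05) and 0.31 (SE 0.06), with an adjusted p of 1.45e-06 in limma at 48 h. Its probes differed: 1 further probe gave -0.32, -0.44, -0.48 and -0.38, while the third gave -0.21 at 6 h and then -0.07, -0.07 and 0.02, none of these 3 called. Dlst, the succinyltransferase core of the same complex, changed by 0.01 at 6 h and fell by 0.22 (SE 0.06), 0.21 (SE 0.05) and 0.25 (SE 0.06) later. The third enzyme of the complex, Dld, was higher, as given above with the branched-chain complex.

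Idh3a, the catalytic alpha subunit of the NAD-dependent isocitrate dehydrogenase, moved apart from its partner subunits. Its controls were at 12.53, 12.72, 12.75 and 12.89 and the 6 h samples at 12.81, 12.83, 12.95 and 13.01. At 24 h the samples were at 12.35, 12.35, 12.44 and 12.47, at 48 h at 12.44, 12.60, 12.66 and 12.72, and at 72 h at 12.23, 12.32, 12.32 and 12.35. The samples of 24 h and 72 h lay below all controls, and those of 6 h and 48 h overlapped them. Its change of 0.17 (SE 0.07) at 6 h was not called (adjusted p = 0.0644 in limma), it fell by 0.32 (SE 0.08) at 24 h and 0.42 (SE 0.08) at 72 h, and its change of -0.12 (SE 0.07) at 48 h was not called. Idh3b changed by 0.01 to 0.06 and Idh3g by -0.01 to 0.10, with no call at any time. The difference between the subunits was not tested.

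The 2 succinyl-CoA ligase beta subunits gave different values. Suclg2, of the GTP-forming enzyme, changed by -0.05 at 6 h and rose by 0.25 (SE 0.06), 0.24 (SE 0.05) and 0.24 (SE 0.06) at 24, 48 and 72 h. Its samples of 24, 48 and 72 h lay between 10.55 and 10.72, all above the controls at 10.30 to 10.46. Sucla2, of the ATP-forming enzyme, changed by -0.04 to 0.01 and the shared alpha subunit Suclg1 by -0.14 to -0.02, with no calls. Fh1, the fumarase, fell by 0.17 (SE 0.05) at 48 h, and its changes of 0.06, -0.15 and -0.13 at the other times were not called. The call was lost in 6 of 16 other settings, with changes of -0.10 without array 7, with quantile normalization and with the authors' series matrix, -0.16 with loess alone, -0.18 without the dye term and -0.15 with array weights. It was also lost without the second Cy3 control, with -0.12, and without either Cy5 sample of 48 h, with -0.15 each. Cs, the citrate synthase that opens the cycle, changed by -0.16 to -0.04 and Idh2, the NADP-dependent enzyme of the matrix, by -0.13 to -0.03, with no calls.

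**Figure D3:**
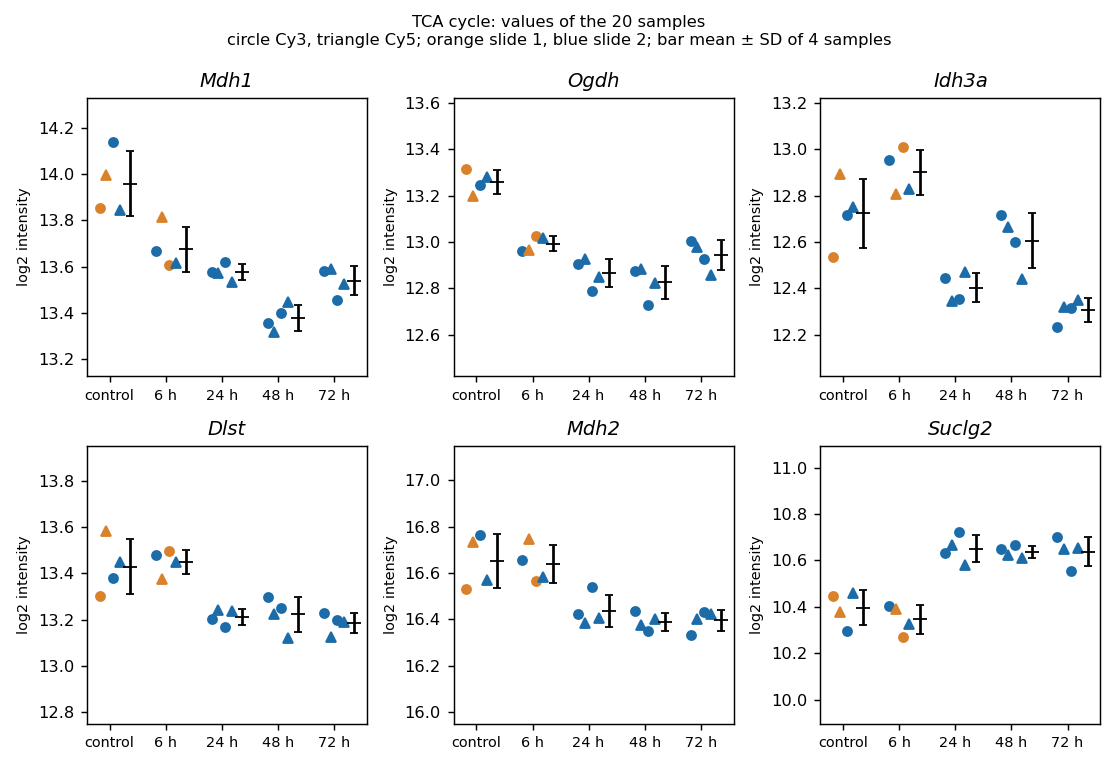
Log2 intensity, dye and slide effects removed, of Mdh1, Ogdh, Idh3a, Dlst, Mdh2 and Suclg2 in the 20 samples (circles Cy3, triangles Cy5, orange slide 1, blue slide 2), with the mean and SD of each group of 4. Mdh1 and Ogdh are below all controls from 6 h on, Idh3a is low at 24 h and 72 h, and Suclg2 is high from 24 h on.

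Of 10 other genes listed with the TCA cycle, cytosolic ones included, 2 were lower at 6 h, and 2 were higher and 3 lower at 24 h. At 48 h, 3 were higher and 3 lower, and at 72 h 3 and 2. Idh1, the cytosolic NADP-dependent isocitrate dehydrogenase, fell by 0.44 (SE 0.04), 0.28 (SE 0.05), 0.74 (SE 0.05) and 0.41 (SE 0.05). Sdhd, a membrane anchor of succinate dehydrogenase, changed by -0.14 at 6 h, not called, and fell by 0.21, 0.37 and 0.39 (SE 0.06) later. Ogdhl, a relative of Ogdh, changed by 0.02 at 6 h and rose by 0.36, 0.31 and 0.42 (SE 0.08). Its signal was dim, with a mean of 6.70 in the controls and 7.14 at 72 h, so the size of its rise is uncertain.

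Of the genes for glutamate and aspartate entry, Glud1, the glutamate dehydrogenase, was called lower at 6 h. Its controls were at 13.79, 13.80, 13.82 and 13.84, and the 6 h samples at 13.58, 13.62, 13.62 and 13.63. At 24 h they were at 13.70, 13.73, 13.79 and 13.80, those of 48 h at 13.73, 13.73, 13.79 and 13.83 and those of 72 h at 13.82, 13.82, 13.84 and 13.86. The 6 h samples lay below all others, and the later groups overlapped the controls. Glud1 fell by 0.21 (SE 0.04) at 6 h (adjusted p = 0.000529 in limma), and its changes of -0.06, -0.04 and 0.02 later were not called. A further probe of Glud1 gave a smaller change of -0.12 at 6 h, with an adjusted p of 0.0359 in limma, and was not called later. Got2, the aspartate aminotransferase of the matrix, changed by -0.13 to 0.03 with no call. Its cytosolic counterpart Got1, from a list of 14 genes of anaplerosis, the malate-aspartate shuttle and glutamine entry, rose by 1.13 (SE 0.06), 0.97 (SE 0.07), 1.10 (SE 0.06) and 1.19 (SE 0.07), a 2.28-fold rise at 72 h with an adjusted p of 2.2e-10 in limma. In that list 6 genes were higher and 3 lower at 6 h, and 6 and 4 at 72 h. Me3, a malic enzyme of the matrix, rose by 0.31, 0.37, 0.65 and 0.70 (SE 0.08). Gls2, a glutaminase, changed by -0.13 at 6 h, not called, and fell by 0.27, 0.35 and 0.76 (SE 0.06) later.

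In fatty acid oxidation, Cpt1a, the outer-membrane carnitine acyltransferase that sets entry of long-chain fatty acids, was lower at every time. Its controls were at 11.0, 11.09, 11.26 and 11.27, the 6 h samples at 10.83, 10.88, 10.90 and 10.90, those of 24 h at 10.68, 10.79, 10.82 and 10.83, those of 48 h at 10.62, 10.67, 10.76 and 10.79 and those of 72 h at 10.67, 10.73, 10.73 and 10.74. All 16 treated samples lay below all controls. Cpt1a fell by 0.27 (SE 0.06), 0.37 (SE 0.07), 0.44 (SE 0.06) and 0.44 (SE 0.07), with an adjusted p of 9.16e-06 in limma at 48 h. Its other probe gave -0.21, not called, then -0.30, -0.29 and -0.39. Cpt2, the inner-membrane partner that re-forms acyl-CoA in the matrix, changed by -0.03 to 0.03 with no call. A further probe of Cpt2 gave -0.07, -0.02, 0.03 and -0.15, not called.

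The acyl-CoA dehydrogenases, which start each round, did not share a course. Acadm, for medium chains, fell by 0.24 (SE 0.04) at 6 h, 0.34 (SE 0.05) at 48 h and 0.25 (SE 0.05) at 72 h, and its change of -0.13 at 24 h was not called. Acadvl, for very long chains, fell by 0.30 (SE 0.06) at 24 h and 0.20 (SE 0.06) at 48 h, and its changes of -0.07 and -0.15 at 6 h and 72 h were not called. The call of Acadvl at 48 h was lost without the second Cy3 control, with a change of -0.17. Acadl, for long chains, fell by 0.13 (SE 0.05) at 6 h and rose by 0.16 (SE 0.06) at 72 h, with adjusted p-values of 0.0405 and 0.0267 in limma. Of the 20 fits without 1 sample, 8 did not keep the call of Acadl at 6 h. That at 72 h was lost without the second Cy5 control, the first Cy3 sample of 6 h, the first Cy3 sample of 72 h or the second Cy5 sample of 72 h, with changes of 0.13 or 0.14. Acads, for short chains, changed by -0.11 to 0.03 with no call.

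The 2 subunits of the trifunctional protein, which carries out the remaining 3 steps on long chains, are encoded by Hadha and Hadhb. Their RefSeq starts lie 273 bases apart on opposite strands. The 250 bases before the start of Hadhb, at chr5:30155003-30155252 on the plus strand of GRCm38.p6, fill most of the stretch between them and are shown because they lie between both starts. No motif is marked in it.
Hadhb: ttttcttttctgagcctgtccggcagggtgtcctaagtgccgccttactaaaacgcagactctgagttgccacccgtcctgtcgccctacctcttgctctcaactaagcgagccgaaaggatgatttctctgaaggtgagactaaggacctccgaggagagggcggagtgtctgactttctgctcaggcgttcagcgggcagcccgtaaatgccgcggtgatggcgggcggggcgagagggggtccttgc
Hadha fell by 0.18 (SE 0.06), 0.32 (SE 0.07), 0.35 (SE 0.06) and 0.22 (SE 0.07) over the 4 times. Hadhb fell by 0.23 (SE 0.07), 0.20 (SE 0.08) and 0.24 (SE 0.07) at 6, 24 and 48 h and was at 0.01 (SE 0.08) at 72 h, not called. Several of these calls lay near the threshold: those of Hadha at 6 h (adjusted p = 0.0411 in limma) and Hadhb at 24 h (adjusted p = 0.048) were lost in 10 and 14 of the 20 fits without 1 sample. The call of Hadhb at 6 h was lost without the second Cy3 or second Cy5 sample of either group, with changes of -0.21 to -0.18. Its call at 48 h was lost without the second Cy3 control, the second Cy5 control or the second Cy5 sample of 48 h, with changes of -0.19, -0.20 and -0.20. The call of Hadha at 72 h was lost without the second Cy5 control, with a change of -0.13, or the second Cy3 sample of 72 h, with -0.20. At 6 h the change of Hadhb was -0.11 on slide 1 and -0.37 on slide 2, and the difference between the slides, -0.27 (SE 0.12), was not called.

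The fatty acid oxidation members called higher at 24, 48 and 72 h were Echs1, Decr1, Eci1 and Eci2, and Hadh was called higher at 24 h and 72 h and Acadl at 72 h. Echs1, the short-chain enoyl-CoA hydratase, was the fatty acid oxidation member called higher at 6 h. The 250 bases before its start lie at chr7:140116422-140116671 on the minus strand of GRCm38.p6. They are shown because they hold the match to the ATF4-C/EBP composite element TGATGNAAN that was found among the members, in capitals. The first base of the match is at -164 from the start. This element was present in 3.95% of 32851 promoter windows of all genes, and its part in the course of Echs1 was not tested.
Echs1: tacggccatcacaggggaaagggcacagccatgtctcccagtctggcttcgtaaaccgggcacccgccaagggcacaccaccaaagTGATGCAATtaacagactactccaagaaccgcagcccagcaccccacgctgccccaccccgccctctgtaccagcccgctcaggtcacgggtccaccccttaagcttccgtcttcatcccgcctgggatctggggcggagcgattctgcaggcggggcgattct
The controls of Echs1 were at 11.99, 12.0, 12.07 and 12.14, the 6 h samples at 12.28, 12.31, 12.32 and 12.35, those of 24 h at 12.40, 12.41, 12.43 and 12.43, those of 48 h at 12.30, 12.32, 12.39 and 12.39 and those of 72 h at 12.51, 12.57, 12.62 and 12.64. All 16 treated samples lay above all controls, and the 72 h samples lay above all others. Echs1 rose by 0.26 (SE 0.04), 0.37 (SE 0.05), 0.30 (SE 0.05) and 0.53 (SE 0.05), with an adjusted p of 1.46e-07 in limma at 72 h.

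Decr1, the 2,4-dienoyl-CoA reductase, and the enoyl-CoA isomerases Eci1 and Eci2 are auxiliary enzymes that prepare unsaturated fatty acids for the cycle of oxidation. The controls of Decr1 were at 12.92, 12.99, 13.01 and 13.02 and the 6 h samples at 12.98, 13.06, 13.19 and 13.20, which overlapped them. Its samples of 24 h were at 13.51, 13.60, 13.62 and 13.64, those of 48 h at 13.48, 13.51, 13.55 and 13.59 and those of 72 h at 13.51, 13.59, 13.62 and 13.62. All 12 later samples lay above every control and every 6 h sample. The change at 6 h, 0.11 (SE 0.05), was not called, and Decr1 rose by 0.60 (SE 0.06), 0.54 (SE 0.05) and 0.59 (SE 0.06) later, a 1.51-fold rise at 72 h with an adjusted p of 3.24e-07 in limma. Its other probe gave smaller values of -0.03, 0.19, 0.18 and 0.27, of which those at 48 h and 72 h were called.

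The controls of Eci1 were at 12.56, 12.68, 12.69 and 12.74 and the 6 h samples at 12.73, 12.75, 12.82 and 12.84. At 24 h they were at 13.02, 13.05, 13.06 and 13.08, those of 48 h at 12.97, 12.98, 13.05 and 13.07 and those of 72 h at 13.0, 13.07, 13.12 and 13.16, all above the controls and the samples of 6 h. The change of 0.10 (SE 0.05) at 6 h was not called, and Eci1 rose by 0.37 (SE 0.06), 0.34 (SE 0.05) and 0.41 (SE 0.06). Eci2 changed by 0.05 at 6 h, not called, and rose by 0.27 (SE 0.06), 0.16 (SE 0.05) and 0.34 (SE 0.06), of which the call at 48 h was lost without the second Cy5 control or the second Cy5 sample of 48 h, with changes of 0.14 and 0.14. Hadh, the hydroxyacyl-CoA dehydrogenase of shorter chains, was higher by 0.29 (SE 0.09) at 24 h and 0.26 (SE 0.09) at 72 h, and its changes of -0.08 and -0.09 at 6 h and 48 h were not called. The call at 72 h was lost without the second Cy3 control, with a change of 0.25. Acaa2, the thiolase of the matrix, fell by 0.27 (SE 0.05) at 48 h and 0.21 (SE 0.05) at 72 h and was at -0.11 at 6 h and 24 h, not called.

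**Figure D4:**
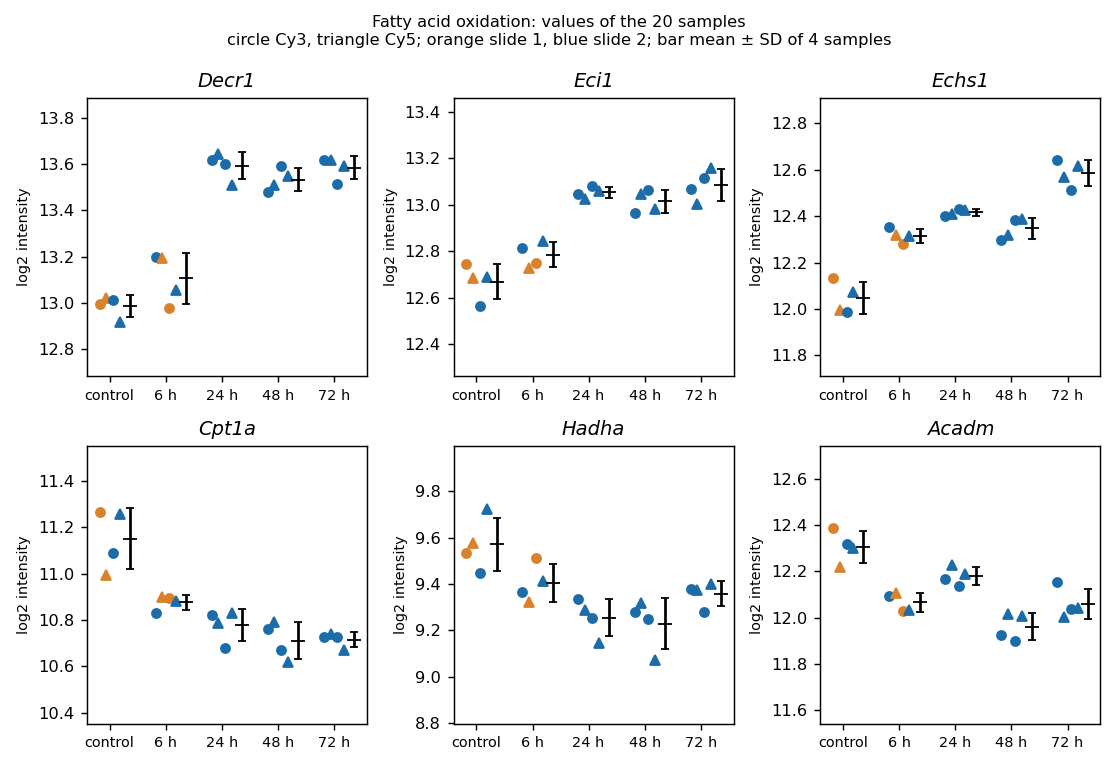
Log2 intensity, dye and slide effects removed, of Decr1, Eci1, Echs1, Cpt1a, Hadha and Acadm in the 20 samples (circles Cy3, triangles Cy5, orange slide 1, blue slide 2), with the mean and SD of each group of 4. Decr1 and Eci1 step up between 6 h and 24 h, Echs1 is above all controls from 6 h on, and Cpt1a is below all controls from 6 h on.

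Of the electron transfer flavoprotein genes, Etfb fell by 0.22 (SE 0.05) at 24 h and 0.12 (SE 0.05) at 72 h. Its controls were at 14.24, 14.29, 14.29 and 14.31, the 6 h samples at 14.18, 14.18, 14.19 and 14.25, those of 24 h at 13.99, 14.05, 14.13 and 14.13, those of 48 h at 14.14, 14.21, 14.22 and 14.24 and those of 72 h at 14.14, 14.17, 14.18 and 14.19. The samples of 24 h and 72 h lay below all controls. The call at 72 h had an adjusted p of 0.0488 in limma and was lost in 18 of 20 fits without 1 sample. The changes of Etfb at 6 h and 48 h, -0.09 and -0.08, were not called. Its partner subunit Etfa changed by 0.10 to 0.12 with no call. A further probe of Etfa gave 0.00, 0.03 and 0.06 at 6, 24 and 72 h, not called, and 0.15 at 48 h with an adjusted p of 0.0187 in limma, and at 48 h the gene was called in 4 of 16 other settings. Etfdh, the oxidoreductase that passes the electrons to ubiquinone, changed by -0.04 to 0.01 with no call.

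The genes beside these routes were described from lists of named pathways. Their counts of calls were not tested against the shares of all features given above. Of 21 other genes of mitochondrial fatty acid oxidation, 5 were higher and 4 lower at 6 h and 10 and 3 at 72 h. Acot2, a thioesterase of the matrix that releases free fatty acids from acyl-CoA, rose by 1.64 (SE 0.13), 2.21 (SE 0.16), 2.37 (SE 0.14) and 2.51 (SE 0.16), a 5.71-fold rise at 72 h. Acsl3, a ligase that activates long-chain fatty acids, changed by -0.11 at 6 h, not called, and fell by 0.60, 0.82 and 0.56 (SE 0.09), while its relative Acsl1 rose by 0.22, 0.36 and 0.74 (SE 0.09) at 6, 24 and 72 h and was at 0.14 at 48 h, not called. Of 13 tested genes of peroxisomal fatty acid oxidation, 3 were higher and 1 lower at 6 h, 7 and 1 at 24 h, and 8 and 7 were higher at 48 h and 72 h. The peroxisomal thiolase Acaa1a rose by 0.26, 0.68, 0.61 and 0.83 (SE 0.05), its relative Acaa1b by 0.16, 0.43, 0.32 and 0.50 (SE 0.07), and Pex11a, of peroxisome division, by 0.30, 0.60, 0.56 and 0.66 (SE 0.06). Near-identical copies such as Acaa1a and Acaa1b may share signal on a probe.

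In the list of 12 genes of the pyruvate dehydrogenase complex, its kinases and the pyruvate carrier, 1 was higher and 4 lower at 6 h, 5 and 1 at 24 h, 5 and 2 at 48 h, and 8 and 2 at 72 h. Pdk4, a kinase that inhibits the complex, rose by 0.18, 0.65, 0.38 and 0.57 (SE 0.05). Pdk1, another of these kinases, fell by 0.26 at 6 h and rose by 0.27, 0.45 and 0.76 (SE 0.07). Pdp2, a phosphatase that activates the complex, changed by -0.22 and -0.24 at 6 h and 24 h, not called, and fell by 0.60 and 0.59 (SE 0.10) later. Of 14 tested transcriptional regulators of fuel oxidation and related factors, 5 were higher and 2 lower at 6 h and 3 and 4 at 72 h. Sirt3, the deacetylase of the matrix, rose by 0.34, 0.48, 0.53 and 0.57 (SE 0.08). Rxra, a partner of nuclear receptors, fell by 0.21, 0.42, 0.57 and 0.54 (SE 0.08), and Lpin1, a phosphatase and coactivator, by 0.41, 0.26, 0.73 and 0.23 (SE 0.09).

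Calls against the control were also set against the other settings, 17 at 6 h and 16 at each later time. The call was lost in 11 of 17 for Ivd, 10 for Acadl, 8 for Hadha and 4 each for Hadhb and Bckdhb at 6 h. Dld, Mdh1, Glud1 and Cpt1a lost theirs at 6 h in 2 settings, on slide 1 alone and with the 2 groups alone, and Ogdh, Acadm, Echs1 and Dbt on slide 1 alone. At 24 h it was lost in 7 of 16 settings for Hadhb, 4 for Mdh2, 3 for Dlst, 2 each for Idh3a, Hadha and Etfb and 1 each for Acadvl and Hadh. At 48 h it was lost in 3 for Acadvl and Eci2, 2 for Hadhb and 1 for Dlst and Mdh2, besides the 6 of Fh1. At 72 h it was lost in 12 for Etfb, 6 for Acadl, 3 each for Dlst, Hadh and Hadha, 2 each for Mdh2 and Acaa2 and 1 for Acadm.

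The steps between successive times show when the members moved. From 6 h to 24 h, 10 of the 38 genes rose and 5 fell, beside 16.4% and 16.4% of all features tested, that is 26.3% and 13.2% of the members. With loess alone 6 rose and 1 fell, and 3 fell without the slide term, without the dye term or with these 2 groups alone. The largest rises in this step were Bckdhb with 0.67 (SE 0.06), Bckdha with 0.53 (SE 0.08) and Decr1 with 0.49 (SE 0.06), and the largest fall was that of Idh3a, by 0.50 (SE 0.08). From 24 h to 48 h no member rose and 3 fell, beside 5.77% and 6.36% of all features, and with loess alone 0 fell. At an unadjusted p under 0.05 in limma, 2 rose and 10 fell in this step. The 3 were Hadh, which fell by 0.37 (SE 0.08), Bckdha, which fell by 0.34 (SE 0.07), and Acadm, which fell by 0.22 (SE 0.05). From 48 h to 72 h, 10 rose and 1 fell, beside 12.9% and 10.3% of all features. This count of rises was 2 with loess within arrays as the sole normalization and 5 without the slide term. All 5 branched-chain genes were among those that rose, by 0.17 (SE 0.06) for Ivd to 0.35 (SE 0.07) for Bckdha. Hadh rose by 0.35 (SE 0.08), Hadhb by 0.25 (SE 0.07), Echs1 by 0.24 (SE 0.05), Eci2 by 0.18 (SE 0.05) and Got2 by 0.16 (SE 0.05), and Idh3a fell by 0.30 (SE 0.07).

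Hadh and Bckdha, called in both of these steps, were 0.29 and 0.38 above the control at 24 h and 0.26 and 0.39 above it at 72 h. Samples of 24 h and 72 h were hybridised together, 48 h samples were hybridised with controls and 6 h samples, and array 7, with the highest share of spots above background, held 1 sample of 48 h. The part of this layout in the 48 h values was not tested. On slide 2 alone, 2 members rose and 7 fell from 24 h to 48 h. At 6 h, where both slides hold both groups, the changes could be compared between slides. On slide 1 the changes of Dbt, Echs1, Ogdh and Acadm at 6 h were 0.29, 0.23, -0.26 and -0.24, and on slide 2 they were 0.46, 0.30, -0.27 and -0.24. In limma's interaction test no member's 6 h change was called as different between slides, beside 0.0289% of all features, and 1 member, Hadhb, had an unadjusted p under 0.05.

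RefSeq promoter windows of 300 bases, 250 before to 50 after a start, were used for 34 of the 38 genes and searched on both strands for 4 motifs. Windows were matched by symbol, and any members' windows on a chromosome set aside were left out, while the shares over all windows include it. Members are counted per gene, and some have several windows, so these counts and the shares per window do not have the same base. The ATF4-C/EBP element TGATGNAAN was present in 3.95% of 32851 windows of all genes and in those of 1 member, Echs1. The NRF1 site GCGCATGCG was present in 1.75% of all windows and in those of Acadm, Etfdh and Ogdh. The ERR element TCAAGGTCA, present in 0.423% of all windows, and the CLEAR E-box TCACGTGA, in 0.974%, had no match in the windows of the 34 genes. A match is a run of letters, and nothing was measured here on binding.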

How the data were processed

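RNA of 20 samples in 5 groups was measured on two-colour Agilent arrays. The deposited intensity values are each spot's median pixel brightness and local background per channel, read with Agilent Feature Extraction 10.7.3.1 (slide 1) and 11.0.1.1 (slide 2), per the file headers, and not normalized. The matrix of log2 values that the authors deposited served as an alternative. Its columns have medians of 6.90 to 6.91, and each follows its own channel (Spearman correlation 1). R 2.15 and limma are named in the submitters' processing notes, without their order or settings.

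In R 4.3.3 with limma 3.58.1, spots were corrected by normexp (offset 50), normalized by loess within arrays and Aquantile between them, and averaged per probe. A shift common to nearly all genes would be removed by these steps. RefSeq accessions gave names to 26582 of 55681 probes. In the slide 2 files 2677 probes carry other names, and slide 1 names were used. Probes well above background in at least 4 samples were kept, and the brightest stood for its gene, which left 24250 features. The fit had terms for group, dye and slide, the array as a random block (correlation 0.25007) and moderated tests with 13 residual degrees of freedom. Dye and slide terms were called for 6397 and 10645 features. Code was tested on simulated data.

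The 38 genes, the other gene lists and the markers were chosen with earlier results of these data known. Every member is named. Values per sample are given for the members with the largest called changes: up to 4 of TCA cycle, of fatty acid and of branched-chain oxidation, and up to 2 of the other roles. From each other list up to 3 genes with the smallest adjusted p are named. Of 40 correlations between the deviations of samples with the same replicate number and dye in different groups, 1 was over 0.1. Samples of a group with the same number and different dyes were not compared, so pairing of that kind was not tested.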

Additional observations from a re-analysis of the deposited data

Results flagged for a closer look

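Each group of 4 samples of each member was searched for a sample apart from the other 3 (Dixon's ratio above its 95% critical value), and 5 of 190 groups held one. Chance gives about 1 in 20 groups. Cs in the second Cy5 sample of 48 h, on array 7, was at 14.90, below the others at 14.96. Sucla2 in the second Cy3 control, on the same array, was at 13.15, above the others at 13.08 to 13.09. Got2 in the second Cy3 sample of 6 h was at 13.13, above 13.03 to 13.04. Acadl in the first Cy3 sample of 24 h was at 11.11, above 10.97 to 10.98. Etfb in the first Cy3 sample of 6 h was at 14.25, above 14.18 to 14.19. Each gap was under 0.2 on the log2 scale, and Cs, Sucla2 and Got2 had no call against the control at any time.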

How the results depend on the processing

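Of 506 counts of members under another setting or without 1 sample, 470 stayed within 1.5 times the count given, and no called change of a member reversed under any of the 23 settings or in the 20 fits without 1 sample. Of 74 calls against the control, 37 were kept in every one of these fits. The settings are named in plain words below; the fit of slide 1 alone, with 2 samples a group, was chosen after seeing the data. Where no cause is given, the cause was not tested.

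With loess within arrays as the sole normalization, the members lower were 5 at 6 h, 3 at 24 h and 4 at 72 h, 6 rose and 1 fell from 6 h to 24 h, 0 fell from 24 h to 48 h, and 2 rose and 0 fell from 48 h to 72 h. Without the slide term 6 were lower at 72 h, 3 fell from 6 h to 24 h and 5 rose from 48 h to 72 h. Without the dye term 3 fell from 6 h to 24 h and 0 from 48 h to 72 h. At 6 h, slide 1 alone gave 0 higher and 0 lower, and a fit of the 2 groups alone 2 and 2. A fit of 6 h and 24 h alone gave 3 that fell. Without array 7, 7 were lower at 48 h. From 24 h to 48 h, 1 rose with quantile normalization over channels, with the authors' series matrix, with probes well above background in all samples, without array 7 and with array weights, and 2 on slide 2 alone. In the same step 6 fell with probes well above background in all samples, 7 on slide 2 alone and 6 with array weights. The fits without 1 sample gave 5 to 10 lower at 6 h, with 5 without the second Cy5 control, 7 to 14 lower at 48 h, with 7 without the second Cy3 control, and from 24 h to 48 h 0 to 1 that rose and 3 to 6 that fell.

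Median changes by role moved by more than 1 SD of the role's median over the 4 treated samples of the time, a spread that leaves out the controls, as follows. Several of these values lie inside the ranges of the fits without 1 sample. For the TCA cycle they were -0.08 at 24 h and 72 h with loess alone, -0.08, -0.07 and -0.08 at 24, 48 and 72 h with quantile normalization and the same with the series matrix, -0.08 at 72 h without the slide term, and -0.10 and -0.06 at 48 h and 72 h without array 7. For fatty acid oxidation they were 0.06 and 0.06 at 24 h and 72 h with loess alone, and 0.11 without the slide term and 0.07 without array 7 at 72 h. For branched-chain oxidation they were 0.27 and 0.47 at 24 h and 72 h without array 7, and 0.59 at 72 h with the 2 groups alone. For ETF, without array 7, they were 0.07, 0.05 and 0.04 at 24, 48 and 72 h. For glutamate and aspartate entry they were -0.11, -0.07 and 0.05 at 6, 48 and 72 h with loess alone. At 6 h they were -0.12 with the mean of a gene's probes, and -0.15 on slide 2 alone, without array 7 and with array weights. They were -0.04 at 48 h with quantile normalization and with the series matrix, 0.11, -0.02 and 0.17 at 24, 48 and 72 h without the slide term, and -0.11 at 48 h without array 7. Without 1 sample, the TCA medians ran from -0.13 to -0.10 at 24 h and -0.12 to -0.06 at 72 h. Those of fatty acid oxidation ran from -0.14 to -0.06 at 6 h, -0.03 to 0.04 at 24 h and 0.00 to 0.07 at 72 h. Those of branched-chain oxidation ran from 0.27 to 0.42 at 24 h and 0.47 to 0.55 at 72 h, and those of ETF from -0.07 to 0.07, -0.10 to 0.03 and -0.10 to 0.04 at 24, 48 and 72 h. Those of glutamate and aspartate entry ran from -0.16 to -0.12 at 6 h, -0.11 to -0.06 at 48 h and 0.00 to 0.06 at 72 h.

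With the replicate number as a replicate block, 9 members were lower at 24 h in place of 10, and 11 rose from 6 h to 24 h in place of 10. Over all features, 2941 were called from 24 h to 48 h, against 333 with loess alone and 846 without the slide term, and at 6 h 6023, against 2745 with the 2 groups alone and 29 on slide 1 alone. From 48 h to 72 h the counts were 5624 against 1782 and 2654. Small changes of dim probes are limited by signal over background, but every member was well above background in all samples. Dbt had the lowest values, 7.40 to 8.17. Over the other settings its change ran from 0.29 to 0.49 at 6 h and from 0.55 to 0.72 at 72 h.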
